A study of Mus musculus with 15 samples.

Results

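Nucleosome occupancy was examined at the promoters of 9 genes for surface molecules of dendritic cells (DCs) and their maturation: *Cd80*, *Cd86*, *Cd40*, *Cd83*, *Ccr7*, *Cd14*, *Itgax*, *Itgam* and *Ptprc*. They were found by matching the RefSeq transcript of each annotated promoter to its gene symbol. All 9 genes were found, with 10 promoters among the 25881 of the series, because *Ptprc* has 2 annotated transcription start sites (TSSs) 179 bp apart on the minus strand. All 10 promoters lay above the coverage limit, a deposited score over 100 that counts fragments near the TSS, and were analysed with the other high-coverage promoters (13559 in all). *Cd86*, at 114, and *Ccr7*, at 122, lay closest to the limit, and *Cd40*, at 832.5, lay farthest above it. The only row of *Cd40* is that of a transcript which RefSeq numbers among non-coding RNAs.

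The 15 libraries were made by ChIP-MNase: an antibody first pulls down long pieces of fixed chromatin, and micrococcal nuclease then trims these to nucleosomes. Mouse DCs, grown in GM-CSF from progenitor lines of bone marrow, were non-stimulated or had received LPS at 100 ng/ml for 1 h, and 3T3 fibroblasts, an immortalised line, were non-stimulated or had received TNF-α at 5 ng/ml for 1 h. Each of these 4 H3K4me1 sets combines 2 replicates that the authors pooled, so none carries a replicate error. A further 8 H3K4me1 libraries came from control fibroblasts and from fibroblasts with a stable shRNA knockdown of *Brg1* and *Brm* (BAF knockdown, delivered by a retrovirus and sorted for green fluorescent protein), each with and without TNF-α in 2 replicates. The last 3 libraries, from fibroblasts after TNF-α, were recovered with antibodies to RNA polymerase II phosphorylated at serine 7 (pol-II S7P, 2 replicates) or serine 5 (pol-II S5P, 1 library). No RNA was measured in these libraries, so neither the knockdown nor the cell labels can be checked against expression here.

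DCs take up antigen in tissues, sense microbial products, and then move to lymph nodes where they activate T cells. This maturation brings surface molecules that the resting cell shows little of: CD80 and CD86 give T cells the second signal they need, CD40 receives help from T cells, CD83 marks the mature cell, and CCR7 is the chemokine receptor that guides it to the lymph node. CD14 is a co-receptor for LPS, *Itgax* (CD11c) and *Itgam* (CD11b) encode integrin chains of myeloid cells, and *Ptprc* (CD45) encodes a phosphatase on nearly all white blood cells. At many active promoters the DNA just upstream of the TSS is poor in nucleosomes (the nucleosome-depleted region, NDR), and the first nucleosome downstream, called +1, holds a regular position.

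The authors took expression values from public RNA-seq of other non-stimulated cells. A value above 0.02 times the mean of the cell type was called expressed. This limit was passed by 8373 of the 13559 high-coverage promoters in DCs and by 6458 in fibroblasts. All 10 promoters passed it in DCs, whereas in fibroblasts only *Cd14* did. Of those under the limit in fibroblasts, *Cd86* and *Cd40* had a value of 0, and *Ccr7* had the highest, 0.224. The authors' value in DCs was highest for *Itgax* (17.9), *Cd14* (14.2) and *Ccr7* (11.9), and lowest for the transcript of the upstream *Ptprc* start (0.196). These values are not from the samples analysed here and their scales differ between the cell types, so no ratio was taken between them.

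Promoter sequences are shown for 4 of the promoters, 250 bases before the TSS and 50 from it, 5′ to 3′ on the strand of the gene (mm9). *Cd86*, *Itgam* and the upstream *Ptprc* start are those with the widest gaps in NDR occupancy between the cell types, and *Ccr7* is the one promoter where both DC sets lay above both fibroblast sets. Capitals mark GAGGAA on either strand (TTCCTC where it lies on the opposite strand), the core of sites bound by PU.1, an ETS factor of myeloid cells.
Cd86, chr16:36666114-36666413, minus strand: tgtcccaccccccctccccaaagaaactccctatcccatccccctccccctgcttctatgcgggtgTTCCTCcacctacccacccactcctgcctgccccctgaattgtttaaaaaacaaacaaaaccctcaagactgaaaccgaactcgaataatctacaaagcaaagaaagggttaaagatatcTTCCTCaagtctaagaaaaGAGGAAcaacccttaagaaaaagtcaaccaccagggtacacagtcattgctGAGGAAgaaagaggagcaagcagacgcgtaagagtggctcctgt
Itgam, chr7:135205904-135206203, plus strand: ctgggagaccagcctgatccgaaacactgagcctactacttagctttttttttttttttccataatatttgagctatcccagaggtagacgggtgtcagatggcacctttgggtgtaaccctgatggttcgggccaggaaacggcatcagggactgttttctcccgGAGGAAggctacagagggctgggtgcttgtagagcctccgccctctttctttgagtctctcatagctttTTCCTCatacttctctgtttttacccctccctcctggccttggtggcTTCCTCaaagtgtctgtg
Ptprc upstream start, chr1:140071833-140072132, minus strand: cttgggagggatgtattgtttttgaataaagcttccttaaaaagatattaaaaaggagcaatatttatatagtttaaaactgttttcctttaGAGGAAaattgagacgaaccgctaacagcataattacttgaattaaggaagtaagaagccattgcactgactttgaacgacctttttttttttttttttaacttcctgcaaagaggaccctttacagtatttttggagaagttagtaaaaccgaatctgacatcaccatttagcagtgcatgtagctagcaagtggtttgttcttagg
Ccr7, chr11:99016342-99016641, minus strand: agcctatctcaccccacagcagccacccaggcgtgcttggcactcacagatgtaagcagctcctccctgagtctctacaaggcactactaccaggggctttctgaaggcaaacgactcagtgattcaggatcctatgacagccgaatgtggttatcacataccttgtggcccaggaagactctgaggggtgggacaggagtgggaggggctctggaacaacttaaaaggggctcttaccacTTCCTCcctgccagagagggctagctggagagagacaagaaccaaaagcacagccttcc

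*Cd86* held 4 copies of GAGGAA, *Itgam* 3, and the upstream *Ptprc* start and *Ccr7* 1 each. Counting *Cd14* with 2 and *Cd83* with 1, this motif was present at 6 of the 10 promoters, and at 27.8% of all 13558 high-coverage promoters with sequence in the same window. The AP-1 motif TGANTCA was found at 4 of the 10 (*Cd80*, *Ccr7*, *Cd14* and *Itgax*), beside 6.48% of all promoters. A pattern of NF-kB sites was found at 2 of the 10 (*Cd86* and *Cd83*), beside 6.12% of all, and the copy of *Cd86* overlaps one of its GAGGAA motifs. The GC box GGGCGG was found at 3 of the 10, *Cd40*, *Cd83* and *Itgam*, and at 51.8% of all. Only *Cd83* lay in a CpG island (GC content above 50% and observed to expected CpG above 0.6 within 200 bp of the TSS), as did 56.1% of all promoters. Of the others, CCAAT was present at 3 promoters (37.4% of all), TATAAA at 2 (9.72%) and a pattern of interferon-response elements at 0 (3.61%). These matches describe letters in the window and were not tested for binding. Of the 10 annotated TSSs, 8 coincide with a GENCODE start of the same gene, and all lie in an exon of it. The start used for *Cd14*, on the minus strand of chromosome 18, lies 82 bp from the nearest GENCODE start, and the downstream *Ptprc* start 173 bp.

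Occupancy was compared by the relative NDR occupancy, the mean of the bins from −150 to 0 bp as a ratio to the promoter's own mean over the 2 kb around it, so that 1 means no depletion. The second measure, the patterning level, sums over bins the product of occupancy and the mean profile of expressed promoters, and is high where a promoter has the NDR and +1 nucleosome of that profile. Both average over all cells of a culture, and a nucleosome held by part of the cells cannot be told apart from one whose position varies. Over all high-coverage promoters the median relative NDR occupancy was 0.597 to 0.665 in the 4 pooled sets. It lay between 0.724 and 0.740 in 4 of the 8 single H3K4me1 libraries (control non-stimulated replicate 1, control TNF-α replicate 1 and both BAF-knockdown non-stimulated replicates) and between 0.606 and 0.630 in the other 4. For pol-II S7P it was 0.684 and 0.700, and for pol-II S5P 0.446.

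The first comparison asked whether these promoters differed in nucleosome structure between DCs and fibroblasts. In the 2 DC sets the median of the 10 promoters was 0.672 and 0.611, close to that of all promoters (0.665 and 0.631). Promoters expressed in resting DCs had 0.510 and 0.467 there, and those with an expression value of 0 had 0.926 and 0.896. In the 2 pooled fibroblast sets the median of the 10 was 1.03 and 1.26, where all promoters had 0.648 and 0.597. Promoters expressed in resting fibroblasts had 0.410 and 0.293 there, and those with an expression value of 0 had 0.927 and 0.929. Both DC sets lay under both fibroblast sets at 6 of the 10 promoters (*Cd86*, *Itgam*, *Cd14*, *Itgax* and both *Ptprc* starts), as they did at 15.8% of all high-coverage promoters. They lay above both fibroblast sets at 1, *Ccr7*, as at 20.2% of all. The limma fit took the 2 states of a cell type as its samples. Its intervals and p-values thus rest on the spread between states, not between replicates. With limma across all promoters, 0 of the 10 passed an adjusted p of 0.05 in either measure, and neither did any of the 13559 (0.00%). At an unadjusted p under 0.05, relative NDR occupancy was lower in DCs at 4 of the 10 (3.85% of all) and higher at 0 (4.39%), while 1117 promoters of the whole series had such a p in either direction. The patterning level was higher in DCs at the same 4, *Cd86*, *Itgam*, *Cd14* and the upstream *Ptprc* start (3.62% of all), and lower at 0 (4.40%), with 1088 promoters of the series past this limit.

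**Figure D1:**
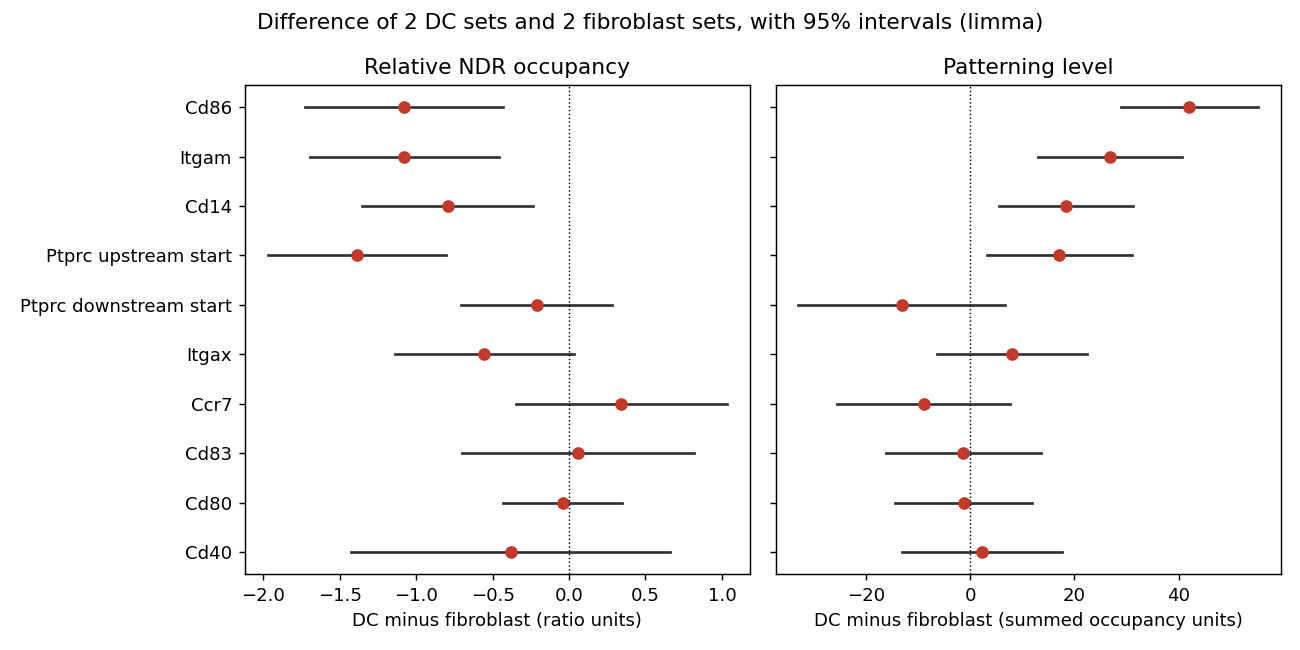
Difference between the 2 DC sets and the 2 pooled fibroblast sets for the 10 promoters, as fitted by limma, with 95% intervals as bars; the left panel gives relative NDR occupancy in ratio units and the right panel the patterning level in summed occupancy units. Intervals exclude 0 at the top 4 promoters in both panels, and none passed an adjusted p of 0.05. The intervals rest on the spread between non-stimulated and stimulated sets, not between replicates.

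*Cd86*, whose product is the B7-2 ligand of CD28, had the highest patterning difference of the 10. Its relative NDR occupancy was 0.387 in non-stimulated and 0.202 in LPS-treated DCs, and 1.58 and 1.16 in non-stimulated and TNF-α-treated fibroblasts. Both DC values thus lay far below 1 and both fibroblast values above it. The mean difference was −1.08 (SE 0.216, 95% interval −1.72 to −0.433, limma, adjusted p = 0.569). The patterning level was 22.6 and 20.8 in the DC sets and −18.3 and −22.5 in the fibroblast sets. The groups were separated by a difference of 42.1 (SE 5.57, interval 29.0 to 55.2, limma, adjusted p = 0.265), and 4 of the 13559 promoters had a smaller unadjusted p. Over all 12 H3K4me1 libraries patterning was fitted on occupancies relative to the mean of each library, which is another scale. There the difference was 18.7 for *Cd86*, and 9.70, 9.58 and 10.7 for *Itgam*, *Cd14* and the upstream *Ptprc* start. These sizes cannot be set against those between the pooled sets. In DCs the highest 50 bp of the first 250 bp downstream lay at 125 bp (non-stimulated) and 145 bp (LPS), at 3.58 and 3.32 times the promoter mean. In both fibroblast sets it lay at 5 bp, the first position scanned, at 2.85 and 5.60 times the mean, and the window from −300 to −150 bp was empty. The 50 bp centred at −25 bp held 3.73 and 3.49 times the promoter mean in these fibroblast sets, and 0.328 and 0.0640 in the DC sets. Whether a nucleosome held the TSS in fibroblasts was not tested. The *Cd86* promoter had fragments in 98.0% and 99.0% of its bins in DCs and in 57.0% and 55.0% in the fibroblast sets, and the part of this in the difference was not tested. In the single fibroblast libraries the promoter varied widely, with a median of 1.02 over the 8. It was 0.171 and 0.685 in control non-stimulated, 1.84 and 1.35 in control TNF-α, 0 and 2.50 in BAF-knockdown non-stimulated and 0.695 and 1.46 in BAF-knockdown TNF-α libraries. Of these 8 values, 2 lay under both DC values, and the BAF-knockdown non-stimulated replicates spanned the whole range.

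*Itgam*, the CD11b chain of complement receptor 3, had values of 0.695 and 0.539 in the DC sets and 1.89 and 1.49 in the fibroblast sets. The groups did not overlap, and the difference was −1.08 (SE 0.207, interval −1.70 to −0.459, limma, adjusted p = 0.569). The patterning level of this promoter was 5.81 and 14.3 in DCs and −16.0 and −17.4 in fibroblasts, a difference of 26.8 (SE 5.89, limma, adjusted p = 0.618). Over all 12 H3K4me1 libraries the difference of *Itgam* in relative NDR occupancy was smaller, at −0.542. That in patterning, on occupancies relative to the mean of each library, was 9.70. Neither interval excluded 0. The lowest 100 bp between −300 and 200 bp were centred at −25 bp in both DC sets, at 0.0951 and 0.212 of the promoter mean. In both fibroblast sets the lowest 100 bp lay at the far upstream end of that range, at −285 and −295 bp. The 3 GAGGAA motifs of *Itgam* marked in the sequence above lie between −84 and 37 bp, on both sides of the centre at −25 bp.

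*Cd14*, the LPS co-receptor and the only one of these genes above the expression limit in the public fibroblast data, had low relative NDR occupancy in DCs. It was 0.257 and 0.199 in the DC sets and 0.842 and 1.20 in the fibroblast sets, so the DC values lay below the fibroblast values without overlap. The difference was −0.794 (SE 0.188, interval −1.36 to −0.232, limma, adjusted p = 0.569), and that of the patterning level was 18.4 (SE 5.51, limma, adjusted p = 0.618). Its lowest 100 bp were centred at −65 bp in both DC sets, at 0.141 and 0.0622 of the promoter mean. Both DC values lay under all 10 fibroblast H3K4me1 libraries, which had a median of 1.04. Among the single libraries it was 1.88 and 1.12 in control non-stimulated, 1.46 and 0.955 in control TNF-α, 0.943 and 1.46 in BAF-knockdown non-stimulated, and 0.942 and 0.595 in BAF-knockdown TNF-α cells, none of them as low as in DCs. This held for 2 of the 10 promoters, *Cd14* and the upstream *Ptprc* start, and for 1.56% of all promoters, while 0 of the 10 lay above all fibroblast libraries (1.56% of all). The 2 DC sets are pooled and 8 of the 10 fibroblast libraries are not. Over all promoters the single libraries left more bins empty, with 63.5% to 78.1% filled against 81.96% to 90.2% in the pooled sets. At *Cd14* and the upstream *Ptprc* start this did not hold throughout. LPS-treated DCs had 80.5% of the bins of *Cd14* filled, and the emptiest single library 74.5%. At the upstream *Ptprc* start LPS-treated DCs had 72%, and the emptiest single library 84.5%. Non-stimulated DCs had 98.5% and 90.5% at these promoters. The part of filled bins in the differences was not tested.

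The 2 starts of *Ptprc* share most of their window, and their profiles were the same values shifted by 18 bins of 10 bp, so they are not independent. At the upstream start, relative NDR occupancy was 0 in non-stimulated and 0.376 in LPS-treated DCs, and 1.63 and 1.52 in the fibroblast sets. This gave the widest gap of the 10, −1.39 (SE 0.195, interval −1.97 to −0.804, limma, adjusted p = 0.569), and 51 promoters of the series had a smaller unadjusted p. The fibroblast values of the single libraries ranged from 0.581 to 1.73, all above both DC sets. The 0 in non-stimulated DCs is the lowest value the ratio can take. Fragments were present in 90.5% and 72.0% of the bins in the DC sets and in 83.5% and 88.0% in the pooled fibroblast sets. A window without fragments cannot be told apart here from one without nucleosomes. At the downstream start the 4 pooled values were 0.712, 0.466, 0.866 and 0.734 in the same order. The groups did not overlap there either, but lay close to each other, with a difference of −0.211 and an interval of −0.704 to 0.281 that held 0. After LPS, a single peak at 25 bp of the downstream start reached 5.96 times the promoter mean, whereas in resting DCs the highest 50 bp lay at 145 bp, at 2.94 times.

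**Figure D2:**
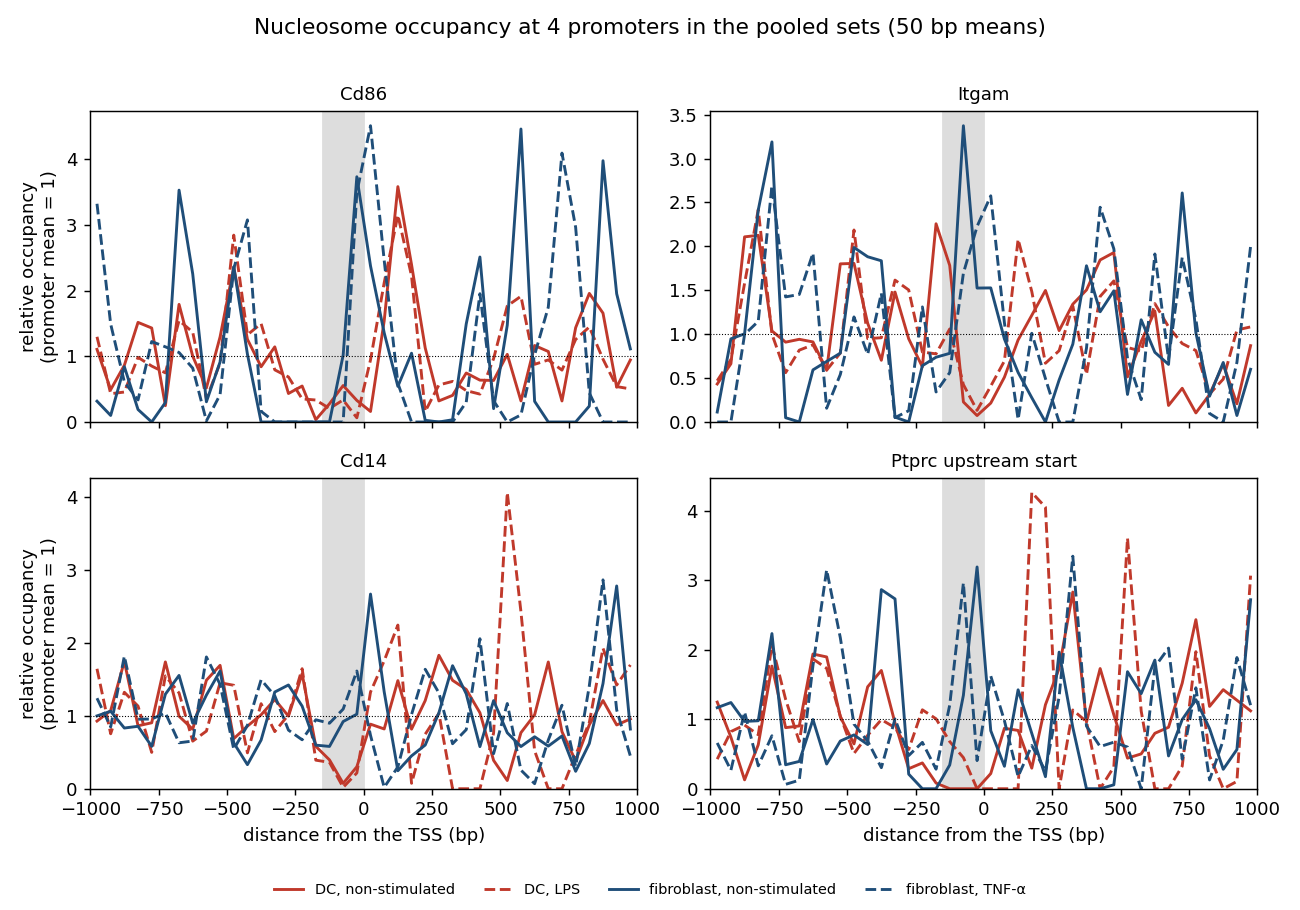
Nucleosome occupancy in 50 bp means, relative to the promoter's own mean, against the distance from the TSS in bp, for *Cd86*, *Itgam*, *Cd14* and the upstream *Ptprc* start in the 4 pooled sets (DCs in red, fibroblasts in blue, stimulated cells dashed); grey marks −150 to 0 bp. In the grey window the DC averages lie under the fibroblast averages, for *Cd86* at 0.387 and 0.202 against 1.58 and 1.16. For *Itgam* the DC averages were less low, at 0.695 and 0.539. For *Cd14* in resting fibroblasts, the highest 50 bp of the first 250 bp downstream were centred at 35 bp, by a running mean that is not drawn.

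*Itgax*, whose CD11c chain is the usual surface marker of DCs, had values near 1 in both DC sets. They were 0.971 and 0.826 in the DC sets and 1.27 and 1.63 in the fibroblast sets. The groups did not overlap, and both DC values lay above the median of all promoters in the same set. *Itgax* had the highest of the DC expression values given above. The difference was −0.553 (interval −1.14 to 0.0295, limma, adjusted p = 0.606), and the patterning level was −1.98 and 2.89 in the DC sets, beside medians of 5.59 and 5.90 over all promoters. In single fibroblast libraries *Itgax* had 1.82 and 1.38 in control non-stimulated, 1.95 and 1.25 in control TNF-α, 1.23 and 1.23 in BAF-knockdown non-stimulated, and 0.504 and 1.52 in BAF-knockdown TNF-α cells. Of these 8, 1 lay below the DC values and 7 above them.

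*Ccr7*, the receptor for lymph node chemokines, was the only promoter of the 10 at which both DC values, 1.84 and 1.35, lay above both fibroblast values, 1.19 and 1.31. Its difference of 0.342 had an interval from −0.347 to 1.03. In resting DCs the window from 50 to 200 bp held 0.0288 of the promoter mean. The highest 50 bp lay at 5 bp, the first position scanned, at 3.09 times the mean, and after LPS also at 5 bp, at 1.22 times. The patterning level was −23.6 in resting DCs, the lowest of the 10 promoters in the 4 pooled sets, and −6.76 after LPS. Whether a nucleosome held the TSS of *Ccr7* in resting DCs was not tested, and the authors' RNA value of 11.9 for this gene is from other cells.

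The remaining 3 promoters did not separate the cell types. *Cd83*, the marker of mature DCs, had 1.05 and 0.875 in DCs and 0.631 and 1.18 in fibroblasts, a difference of 0.0595 with an interval of −0.697 to 0.816. *Cd80* (B7-1, the second ligand of CD28) had 0.649 and 0.720 in DCs and 0.695 and 0.758 in fibroblasts, and its difference of −0.0414 had the narrowest interval, −0.431 to 0.348. *Cd40*, the receptor for the T cell ligand CD40L, had 0.644 and 0.682 in DCs and 0.621 and 1.47 in fibroblasts, a difference of −0.381 with an interval of −1.43 to 0.662. For *Cd80* and *Cd40* the DC values lay close to the median of all promoters, and for *Cd83*, despite its CpG island, above it. Differences as wide as those of *Cd86* and *Itgam* lay outside the intervals of *Cd80* and *Cd83*, but inside that of *Cd40*.

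**Figure D3:**
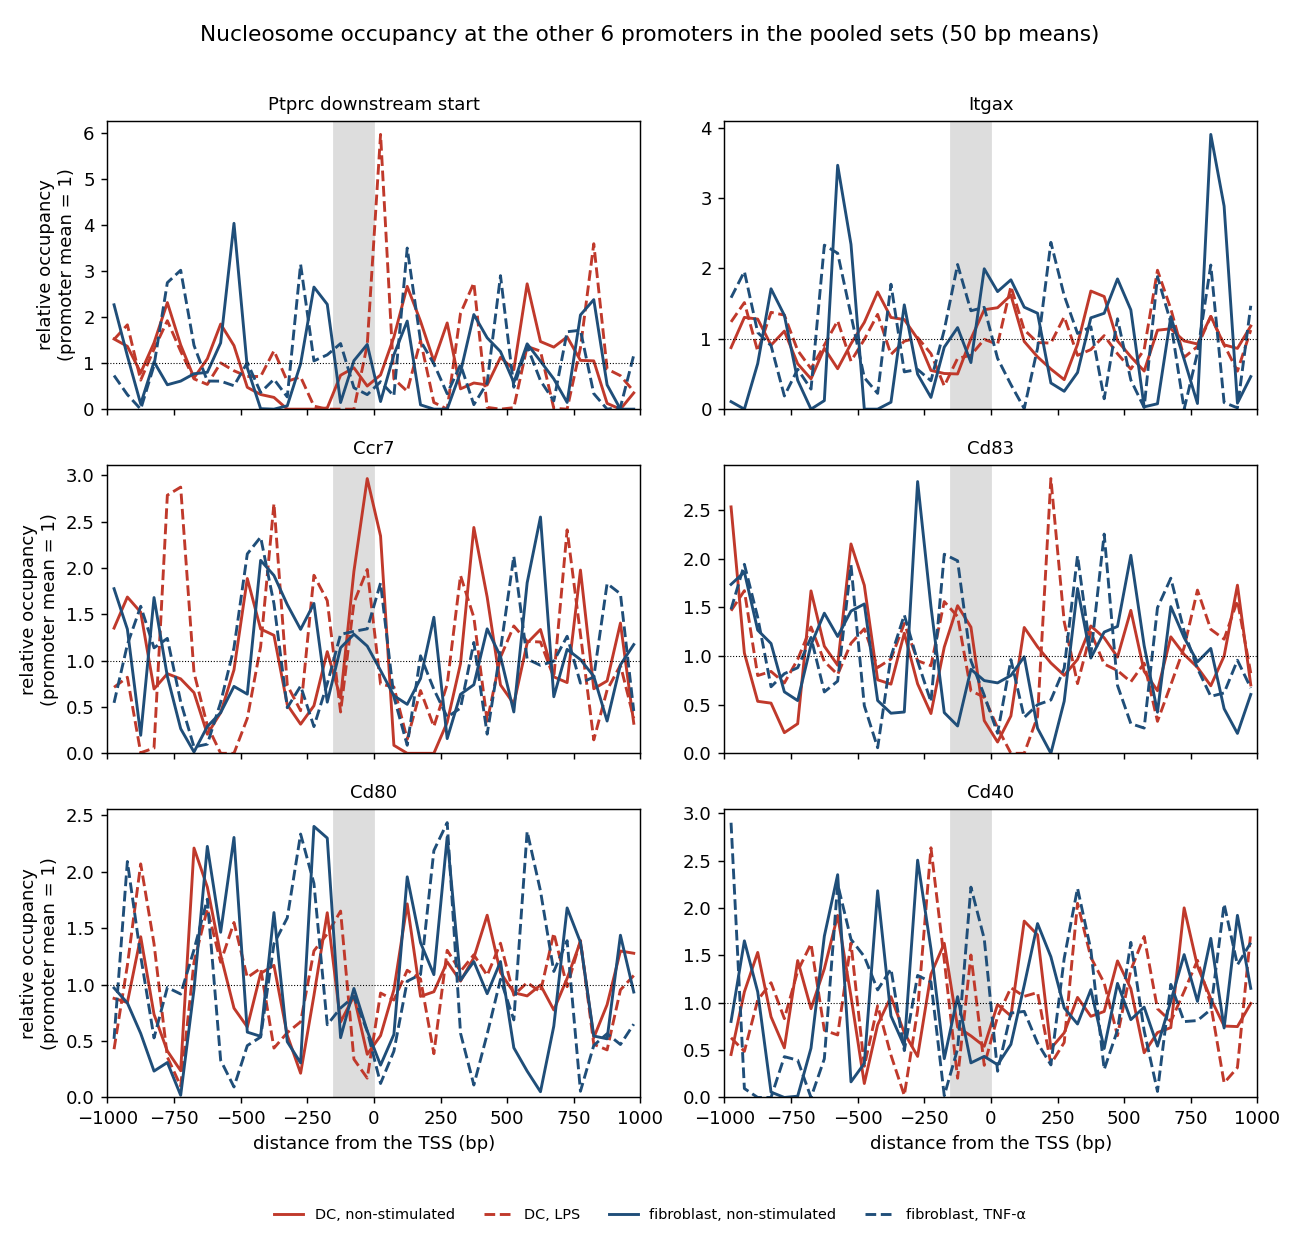
Nucleosome occupancy in 50 bp means, relative to the promoter's own mean, against the distance from the TSS in bp, for the other 6 promoters in the 4 pooled sets, drawn as for the first 4. For *Ccr7* the line of resting DCs peaks near the TSS and is lowest downstream of it, and for the downstream *Ptprc* start the line of LPS-treated DCs reaches 5.96 times the promoter mean.

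For context, 58 gene symbols of other DC molecules, mostly of the cell surface, were listed. They include an older and a newer symbol of the same gene (*Emr1* and *Adgre1*) and the actin-bundling *Fscn1*. Of the symbols, 54 had an annotated promoter and 40 a promoter above the coverage limit (43 promoters). With limma, 0 of the 43 passed an adjusted p of 0.05 in any of the fits below. Relative NDR occupancy in both DC sets lay under both fibroblast sets at 15 of the 43 (15.8% of all promoters) and above them at 3 (20.2%). At an unadjusted p under 0.05 it was lower in DCs at 9 (3.85% of all) and higher at 1 (4.39%). The median difference of the list was −0.233, beside 0.0246 for all promoters, and its medians were 0.516 and 0.623 in the DC sets and 0.794 and 0.835 in the fibroblast sets. The median difference of the patterning level was 4.83, beside −0.423 for all.

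Marker lists of the cell types were counted in the same way, beside the 15.8% of all promoters at which both DC sets were lower and the 20.2% at which they were higher. Of 9 promoters of DC marker genes above the coverage limit, both DC sets were lower at 3 and higher at 3, and of 7 of fibroblast marker genes they were lower at 1 and higher at 2. The counts were 0 and 0 of 3 promoters for macrophage markers, 1 and 0 of 4 for granulocyte markers, 0 and 2 of 4 for T cell markers, 0 and 1 of 3 for B cell markers, 0 and 0 of 2 for mast cell markers, and 0 and 1 of 2 for progenitor markers. With so few promoters a list nothing was read from these counts, and the share of other cells in a culture was not tested.

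The next comparison asked what 1 h of LPS did in DCs. With 1 pooled set a state there was no test, and a difference past 0.25 in relative NDR occupancy was counted. It was lower after LPS at 1 of the 10 promoters, *Ccr7* (from 1.84 to 1.35), as at 29.0% of all promoters, and higher at 1, the upstream *Ptprc* start (from 0 to 0.376), as at 25.1% of all. The other 8 differed by −0.245 to 0.0709. *Cd80*, *Cd86*, *Cd40* and *Cd83*, the maturation molecules other than *Ccr7*, differed by 0.0709, −0.185, 0.0375 and −0.175, which is less than the median absolute difference of 0.281 over all promoters between these sets. In a window from −200 to 50 bp the sign was the opposite at *Cd86* (0.106), *Cd83* (0.0178), *Cd40* (−0.0385) and *Cd14* (from −0.0577 to 0.0156), each still within 0.25. The difference of the downstream *Ptprc* start, −0.245, was 0.891 in that window, which takes in the peak at 25 bp, and that of *Itgam* went from −0.155 to −0.351.

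After 1 h of TNF-α in the pooled fibroblast sets, 2 of the 10 promoters had values lower by more than 0.25, *Cd86* (−0.419) and *Itgam* (−0.399), as had 30.5% of all promoters. Values higher by more than 0.25 were found at 4, *Cd40* (0.847), *Cd83* (0.545), *Itgax* (0.361) and *Cd14* (0.360), as at 25.6% of all. *Cd40*, from 0.621 to 1.47, had the widest difference and exceeded the difference of 94.3% of all promoters. In a window from −200 to 50 bp the sign was the opposite at *Cd86* (0.175), *Cd14* (−0.102), *Cd80* (from 0.0630 to −0.325) and the upstream *Ptprc* start (from −0.103 to 0.152). *Itgam* (−0.109) and *Itgax* (0.0759) also fell short of 0.25 there, while *Cd80* and *Ccr7* (0.301) passed it. Of the 6 promoters counted above, *Cd40* (0.417) and *Cd83* (0.549) differed by more than 0.25 in both windows.

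The 8 single libraries gave a test of TNF-α. The 2 levels of the library medians given above run partly with TNF-α. Non-stimulated libraries lie in the upper level except control replicate 2, and TNF-α libraries in the lower except control replicate 1. With the ratio less the median of each library, chosen after seeing the data, the counts of relative NDR occupancy at an adjusted p of 0.05 did not change. Patterning was not fitted that way, and the part of the 2 levels in single estimates was not tested further. With limma, TNF-α against non-stimulated gave 0 of the 10 promoters past an adjusted p of 0.05 in either measure, and 0 of all promoters (0.00%). At an unadjusted p under 0.05 the count was 0 of 10 in relative NDR occupancy (3.32% of all lower and 1.92% higher) and 0 of 10 in patterning (2.25% lower and 3.43% higher). No promoter of the 10 had all 4 TNF-α libraries below or above all 4 non-stimulated ones, beside 1.71% and 0.857% of all promoters. For *Cd40* the estimate was −0.515 (interval −1.13 to 0.0972), with the opposite sign to the pooled sets. Its values were 1.43 and 1.34 in control non-stimulated, 1.55 and 0.668 in control TNF-α, 1.13 and 1.06 in BAF-knockdown non-stimulated, and 0.634 and 0.0475 in BAF-knockdown TNF-α libraries. The 2 control TNF-α replicates of *Cd40* thus lay about as far apart as the 2 pooled states. Over the 10 promoters the median absolute difference between replicates was 0.436 to 0.522 in these 4 groups, and over all promoters 0.395 to 0.471.

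**Figure D4:**
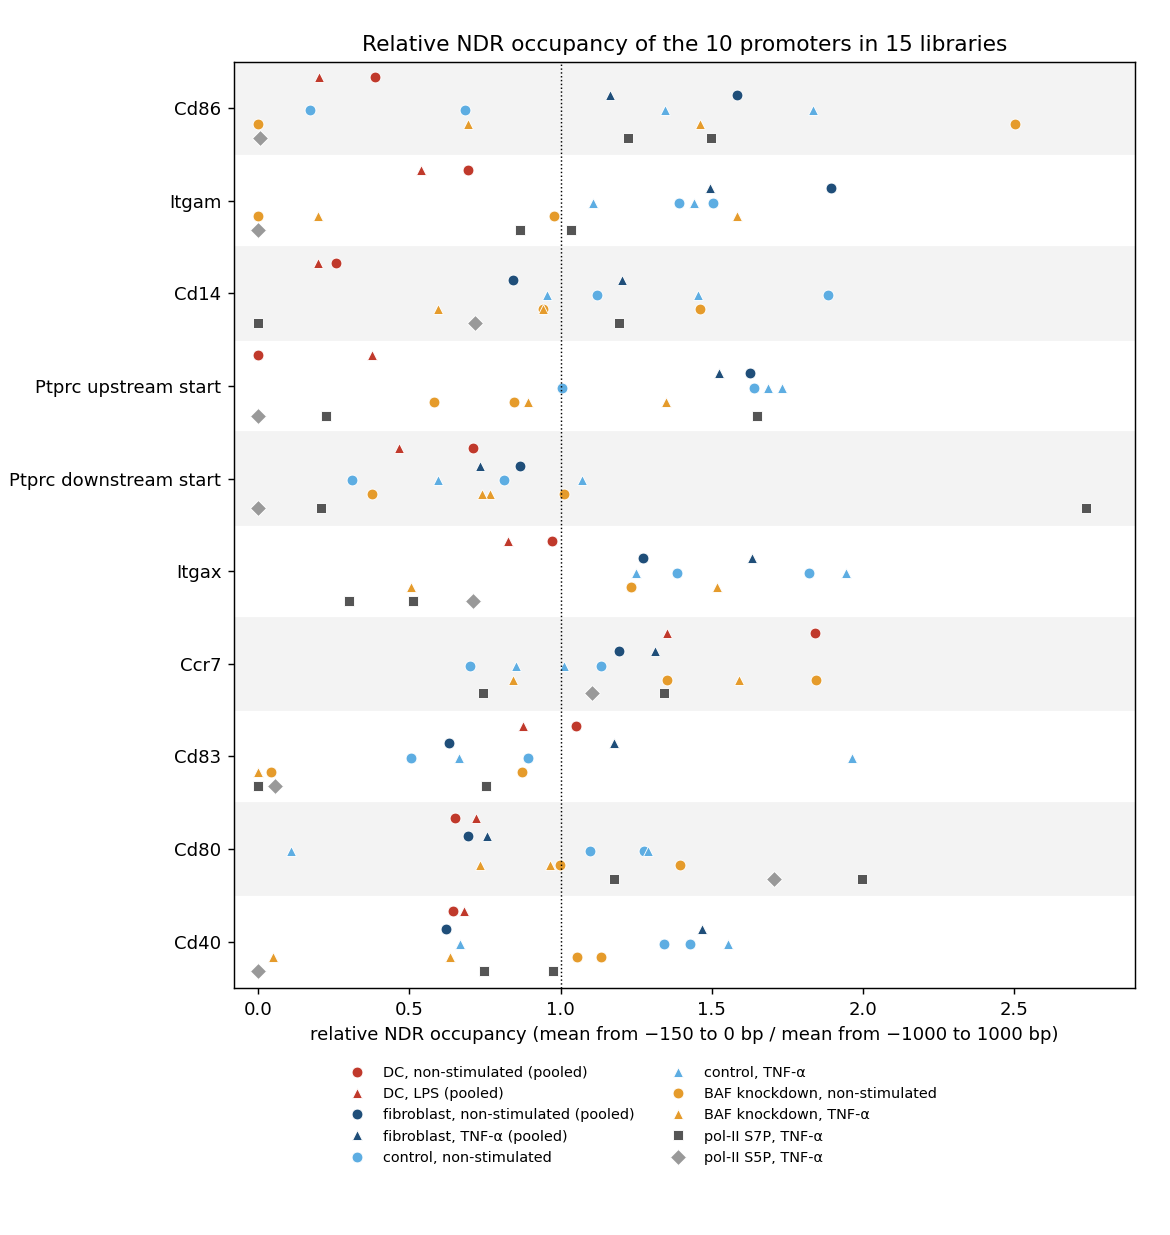
Relative NDR occupancy (x axis, ratio of means, no unit) of each of the 10 promoters in all 15 libraries, with 1 point for each library and the dotted line at 1. For *Cd14* and the upstream *Ptprc* start both DC points lie left of all 10 fibroblast H3K4me1 points, while replicates of control and BAF-knockdown libraries lie far apart, as for *Cd86* from 0 to 2.50.

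The BAF complex slides and evicts nucleosomes, and *Brg1* and *Brm* encode its ATPases. The knockdown comparison, over 4 control and 4 BAF-knockdown libraries with TNF-α as a second term, asked whether the promoters of these genes depend on it in fibroblasts. With limma, 0 of the 10 passed an adjusted p of 0.05 in relative NDR occupancy or patterning, and 0 of all promoters (0.00%). No promoter of the 10 had all 4 knockdown libraries below or above all 4 controls, beside 1.23% and 1.50% of all promoters. At an unadjusted p under 0.05, the upstream *Ptprc* start was lower in relative NDR occupancy (1 of 10, beside 2.73% of all) and 0 were higher (2.85%). It had 1.01, 1.64, 1.69 and 1.73 in the control libraries (1.52 ± 0.343, SD, n = 4) and 0.581, 0.848, 1.35 and 0.892 in the knockdown libraries (0.918 ± 0.319, SD, n = 4). The ranges overlapped in 1 library of each group, and the estimate was −0.599 (SE 0.204, interval −1.08 to −0.115, limma, adjusted p = 0.868). In the window from −200 to 50 bp it was −0.236, with an unadjusted p of 0.152 in limma. *Cd83* had 0.891, 0.504, 0.663 and 1.96 in the controls and 0.872, 0.0422, 0 and 0 in the knockdown libraries, and its estimate of −0.777 had an interval of −1.70 to 0.145. *Itgam* had 1.50, 1.39, 1.44 and 1.11 in the controls, and 0.978, 0, 0.197 and 1.58 in the knockdown libraries, with an estimate of −0.671 and an interval of −1.55 to 0.211. The controls of *Itgam* lay close together, with an SD of 0.175, whereas the knockdown libraries spread with an SD of 0.731. *Ccr7* was the only promoter with a patterning level lower in the knockdown at an unadjusted p under 0.05 (1 of 10, beside 2.96% of all, and 0 of 10 higher, beside 2.88%). Its patterning estimate was −4.09 (interval −8.15 to −0.0315, limma, adjusted p = 0.841), which lost its unadjusted p under 0.05 in 9 of 13 alternatives, and its relative NDR occupancy had an estimate of 0.483 (interval −0.0954 to 1.06).

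The knockdown by TNF-α interaction asked whether the response to TNF-α differs in knockdown cells. It passed an adjusted p of 0.05 at 0 of the 10 promoters and at 1 of 13309 (0.00751%), a promoter of another gene. At an unadjusted p under 0.05 the count was 0 of 10 (3.74% of all lower and 2.20% higher). Estimates for the 10 ranged from −1.34 for *Cd86* to 0.573 for *Itgam*, and each interval held 0. The 2 levels of the library medians given above fall together with knockdown and TNF-α. Both BAF-knockdown non-stimulated libraries lie in the upper and both BAF-knockdown TNF-α libraries in the lower level. With the ratio less the median of each library, chosen after seeing the data, the counts at an adjusted p of 0.05 did not change. The part of this in the single estimates was not tested further.

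The last comparison set pol-II S7P libraries beside H3K4me1 libraries of control fibroblasts, all after TNF-α. Pol-II libraries have paired-end and H3K4me1 libraries single-end reads, so antibody and type of sequencing cannot be told apart. With limma, 0 of the 10 passed an adjusted p of 0.05 in either measure, as did 0 of all promoters (0.00%). Both S7P libraries lay under both control libraries at 3 of the 10, *Itgax*, *Itgam* and the upstream *Ptprc* start (15.6% of all), and above them at 0 (22.2%). *Itgax* was 0.512 and 0.301 in the S7P libraries and 1.95 and 1.25 in the control libraries, without overlap. Its estimate of −1.19 (SE 0.339, interval −2.19 to −0.191, limma, adjusted p = 0.592) was the only one of the 10 with an unadjusted p under 0.05 (3.76% of all lower), and 0 were higher (4.59%). That estimate was −0.397 in the window from −200 to 50 bp (unadjusted p = 0.284 in limma) and −0.842 without control TNF-α replicate 1 (unadjusted p = 0.0591 in limma). *Itgam*, its neighbour in the integrin family, was 1.03 and 0.866 in the S7P and 1.44 and 1.11 in the control libraries, and the groups nearly touched. The upstream *Ptprc* start was 0.225 and 1.65 in the S7P and 1.69 and 1.73 in the control libraries, so that 1 S7P library lay beside the controls. For the patterning level 0 of 10 had an unadjusted p under 0.05 (3.25% lower and 2.94% higher). Over the 10 promoters the S7P replicates differed by a median of 0.675, more than over all promoters (0.385).

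The single pol-II S5P library had no replicate and was not tested. Its median over the 10 promoters was 0.0310, and *Cd40*, *Itgam* and both *Ptprc* starts had 0 in the NDR window. *Cd80* was highest, at 1.71, and was also above 1 in both S7P libraries (2.00 and 1.18). The library had fragments in 20.0% of the bins of the upstream *Ptprc* start and in 34.5% of those of *Cd86*, and a window without fragments cannot be told apart here from one without nucleosomes.

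For each promoter the promoter of another gene with the most alike course of relative NDR occupancy over the 15 libraries was sought, as a description over libraries of unlike depth and antibody. The search covered high-coverage promoters with a gene symbol and a value in each library. Pearson's r was 0.801 to 0.919 for these best matches. They were *Orc4* for *Cd86* (0.834), *Sqor* for *Itgam* (0.838), *Sprr2b* for *Cd14* (0.893), *Muc1* for the upstream (0.887) and *1700086L19Rik* for the downstream *Ptprc* start (0.919), *Ifna16* for *Itgax* (0.842), *Ttc23* for *Ccr7* (0.827), *2900005J15Rik* for *Cd83* (0.859), *Ap1m2* for *Cd80* (0.854) and *Il17c* for *Cd40* (0.801).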

How the data were processed

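Per the paper's methods, the authors aligned ChIP-MNase reads to mm9 with bowtie, discarded duplicates in excess of the local density, and limited paired-end data to fragments of 140 to 180 bp, while single-end reads were lengthened to the mean fragment. Counts per 10 bp bin were put relative to the total of the surrounding 1 kb and averaged over 50 bp. The deposited nucleosome occupancies are thus a signal, in 200 bins from −1000 to 1000 bp of each TSS. Total counts were not given, so depth is unknown, no counting interval can be given, and kilobase-scale differences in occupancy are removed. An empty bin was read as 0. The deposited promoter annotation also holds a coverage score and public expression values, which were used, and the authors' log2 changes of array expression upon stimulation, which were not used. Its coordinates count from 1: 7954 plus-strand starts equal a GENCODE start that way, and 171 when counted from 0. Of the promoters, 24924 (96.3%) matched a RefSeq symbol.

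The patterning template was the mean profile of high-coverage promoters with expression above 0.02 times the mean in resting cells of the same type, rescaled from 0 to 1 and centred. Each comparison was fitted with limma (version 3.58.1, R 4.3.3, two-sided) across all high-coverage promoters with a value in each library. Benjamini-Hochberg adjustment was at 0.05. Patterning of pol-II S7P, and patterning over all 12 H3K4me1 libraries, used occupancies relative to the mean of each library. The scripts were tested on simulated data. The cell type fit treated the 2 states of a cell type as its samples. The study describes its replicates as independent samples. The genes and lists were chosen with earlier results of these data known. All promoters of the 9 genes were named, the best match of each, and up to 6 of the other listed DC molecules past a threshold, of which there were 0. Alternatives varied the coverage limit, the window, the reference of the ratio, the template, the scale, the terms and each library.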

Additional observations from a re-analysis of the deposited data

How the results depend on the processing

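Of 1094 estimates for the 10 promoters under alternatives of the limma fits, 0 passed an adjusted p of 0.05, and the smallest was 0.0585, for the patterning level of *Cd86* with stimulation as a second term. The 123 that belong to an estimate whose interval excluded 0 all had the same sign as it, and 29 of them had an unadjusted p of 0.05 or more. Of the 971 whose interval held 0, which were given no direction, 92 changed sign. Relative NDR occupancy at the upstream *Ptprc* start kept its unadjusted p under 0.05 in all 11 alternatives of the cell type fit, and the patterning level of *Cd86* in all 10. Without either DC set that p was lost for *Cd86*, *Itgam* and *Cd14* (NDR differences of −1.17 and −0.987 for *Cd86*, −1.16 and −0.999 for *Itgam*, −0.823 and −0.765 for *Cd14*), where the lone set was assumed to vary like the other group, and over all 12 H3K4me1 libraries for *Cd86* (−0.850) and *Itgam* (−0.542, and 9.70 in patterning). In patterning it was also lost for *Cd14* without LPS-treated DCs (17.04) and for the upstream *Ptprc* start without non-stimulated DCs (13.6) or TNF-α fibroblasts (14.5). For *Itgax* in pol-II S7P it was lost in 4 of 10 alternatives (−0.397 in the window from −200 to 50 bp), for the upstream *Ptprc* start in the knockdown in 4 of 14 (−0.236 in that window), and for *Ccr7* patterning in 9 of 13. Of 113 alternatives of fits over all promoters, 107 had no call. Knockdown patterning had 1 call at a coverage above 200. The interaction, with 1 call as reported, had 0 with the log2 ratio to the upstream flank and 0 to 3 with 1 library left out, and the cause was not tested. The ratio less the median of each library, chosen after seeing the data, changed no such count. In the pooled fibroblasts, the difference with TNF-α had the opposite sign in the window from −200 to 50 bp at *Cd86* (0.175), *Cd14* (−0.102), *Cd80* (−0.325) and the upstream *Ptprc* start (0.152), and fell under 0.25 at *Itgam* (−0.109) and *Itgax* (0.0759). In that window the difference with LPS turned at *Cd86* (0.106) and the downstream *Ptprc* start (0.891), and at *Cd83*, *Cd40* and *Cd14*.

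Across promoters, replicate numbers did not pair the libraries: deviations of same-numbered libraries correlated by −0.00643 to 0.0248 for relative NDR occupancy. This measure cannot see a shift shared by all promoters. The library medians of control cells were 0.740 and 0.733 in replicate 1, and 0.606 and 0.618 in replicate 2 (non-stimulated, TNF-α). Those of BAF-knockdown cells were 0.737 and 0.626 in replicate 1, and 0.724 and 0.630 in replicate 2. With the replicate block the interaction had 0 calls, and the knockdown, TNF-α and pol-II S7P fits had 0 with it as without it. The share of filled bins, 53.5% to 100.0% at these promoters in single libraries, limits single values, and 4 of 80 relative NDR values there were 0.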
